A study of Rattus norvegicus with 12 samples.

Results

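Antioxidant enzymes of the neonatal rat left ventricle (LV) were followed through 5 genes, taken by their Ensembl identifiers from the 34733 rows that were counted in every library: Sod1 (ENSRNOG00000002115), Sod2 (ENSRNOG00000019048), Cat (ENSRNOG00000008364), Hmox1 (ENSRNOG00000014117) and Nqo1 (ENSRNOG00000012772). All 5 passed the filter on low counts in each comparison. The study placed a suture around the abdominal aorta of Sprague–Dawley pups, male and female, on postnatal day 1, with a needle as a spacer that was then withdrawn, a procedure called abdominal aortic banding surgery (ABS), and compared them with sham-operated pups. The aim was a left ventricular load that grows slowly, and the band lies below the renal arteries. RNA was sequenced at postnatal day 3 (P3) and at postnatal day 7 (P7), which gave 4 groups of 3 libraries, named ABS-P3, Sham-P3, ABS-P7 and Sham-P7. The labels name no transgene or drug for any group, and the sex of the pup behind each library is not given in the sources used here. The sample labels call the material left ventricular myocardiocytes, while the study's methods describe whole LVs, and cell type markers were not analysed here because the identifiers are not paired with symbols. In bulk RNA of this kind, fewer cells of a type and less RNA per cell cannot be told apart.

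As background, superoxide dismutases turn superoxide into hydrogen peroxide, Sod1 mainly in the cytosol with copper and zinc and Sod2 in the mitochondrial matrix with manganese. Catalase, the product of Cat, splits hydrogen peroxide into water and oxygen, chiefly in peroxisomes. Hmox1 encodes the inducible heme oxygenase, which breaks heme down to biliverdin, carbon monoxide and iron, and Nqo1 encodes a quinone reductase. Hmox1 and Nqo1 are textbook targets of the stress-responsive transcription factor Nrf2, which binds antioxidant response elements. After birth the rodent heart moves from glycolysis towards mitochondrial fatty acid oxidation, and mitochondrial respiration is a main source of superoxide in cardiomyocytes.

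Of the 5 genes, 4 were matched by symbol to RefSeq promoter sequences of the rat assembly GRCr8, and Hmox1 was not. The sequences of Sod1, Sod2 and Cat are shown as examples, and a link between sequence and RNA level was not tested. Each line gives the 250 bases before the transcription start, 5′ to 3′ on the strand of the gene. Sod1 lies at chr11:42942573-42942822 on the plus strand, Sod2 at chr1:50050169-50050418 on the minus strand and Cat at chr3:110329527-110329776 on the minus strand. Capitals mark matches on either strand to the GC box, spelled GGGCGG, to the TATA box, spelled TATAAA, to the CCAAT box, spelled as its name, or to the core of an antioxidant response element, spelled TGACNNNGC.
Sod1: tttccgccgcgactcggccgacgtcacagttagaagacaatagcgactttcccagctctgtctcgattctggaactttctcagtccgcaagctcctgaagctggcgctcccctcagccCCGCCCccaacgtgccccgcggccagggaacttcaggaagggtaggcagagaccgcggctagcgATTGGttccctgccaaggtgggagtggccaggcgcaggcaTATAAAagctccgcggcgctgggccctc
Sod2: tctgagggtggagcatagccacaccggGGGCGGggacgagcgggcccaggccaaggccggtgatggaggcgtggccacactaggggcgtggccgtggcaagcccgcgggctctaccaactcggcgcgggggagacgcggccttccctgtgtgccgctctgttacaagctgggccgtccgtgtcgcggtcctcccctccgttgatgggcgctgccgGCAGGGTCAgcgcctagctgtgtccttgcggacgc
Cat: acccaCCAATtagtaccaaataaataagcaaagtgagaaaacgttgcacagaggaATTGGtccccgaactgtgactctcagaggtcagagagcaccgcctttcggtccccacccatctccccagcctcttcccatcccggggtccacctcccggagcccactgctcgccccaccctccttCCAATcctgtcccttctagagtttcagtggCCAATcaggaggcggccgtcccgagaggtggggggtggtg

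The Sod1 sequence held a TATA box at position -28, counted to the left end of the match with -1 as the base before the start, a CCAAT box at -68 and a GC box at -132, the last 2 on the reverse strand. The Sod2 sequence held neither TATA nor CCAAT, a GC box at -223 and 1 match to the antioxidant response core at -35 on the reverse strand. Cat held 4 CCAAT boxes, at -245, -195, -70 and -40, that at -195 on the reverse strand, and none of the other 3 motifs. Nqo1, not shown, held a CCAAT box at -159, a GC box at -108 and a TATA box at -59. No matches overlapped each other. Among 33469 RefSeq promoters of the same length, 30.5% held a GC box, 12.9% a TATA box, 34.0% a CCAAT box and 10.1% the antioxidant response core, so these matches are a description of the letters and not of bound sites.

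Libraries held 14268210 to 17286278 counts. Between 18579 and 18982 genes were detected with 1 count or more in the P7 libraries, against 15266 to 18359 in those of P3. The 3 libraries with fewer than 16000 genes detected were ABS-P3 replicates 1 and 2 (15266 and 15719) and Sham-P3 replicate 2 (15451), so they did not fall on one side of the surgery. Levels are given as CPM, the usual scaling of counts to the library total, with totals corrected by TMM factors, which were 0.802 to 0.897 in those 3 libraries, 0.987 to 1.05 in the other 3 of P3 and 1.06 to 1.09 at P7. Gene lengths are not in the files, so levels were compared between libraries of one gene and not between genes. With 3 libraries in each group, no exact permutation test can go below p = 0.1, so p-values for 2 groups come from models fitted across all genes.

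Sod1 had the highest coefficient of variation of the 5 genes at P3 and the lowest at P7. It was at 217, 168 and 80.5 CPM in ABS-P3 replicates 1 to 3 and at 108, 291 and 148 CPM in Sham-P3 replicates 1 to 3. The highest library held 3.61 times the level of the lowest, and 72.1% of the 13010 genes whose mean reached 1 CPM had a smaller ratio among the 6 libraries of P3. The 3 highest values came from the 3 libraries with the fewest genes detected, 2 after ABS and 1 after sham surgery, and the lowest came from an ABS library. At P7, Sod1 was at 111, 116 and 121 CPM in the ABS group and at 124, 129 and 123 CPM in the sham group, a ratio of 1.16 from highest to lowest. Every ABS-P7 library was thus below every Sham-P7 library, with group means of 116 ± 4.58 and 125 ± 3.31 CPM (SD, n = 3). By mean, the order of the groups was Sham-P3 (182 ± 96.0 CPM, SD, n = 3), ABS-P3 (155 ± 69.1 CPM, SD, n = 3), Sham-P7 and ABS-P7. Only the P7 groups were separate from each other, and every other pair of groups overlapped.

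Sod2, the mitochondrial enzyme, had the narrowest range of the 5 genes at P3. Its levels were 158, 163 and 193 CPM in ABS-P3 replicates 1 to 3 and 226, 158 and 167 CPM in Sham-P3 replicates 1 to 3, a ratio of 1.43 from highest to lowest, against a median of 2.43 over all 13010 genes. The 3 lowest libraries were the same 3 that were highest for Sod1. At P7, Sod2 was at 199, 200 and 240 CPM after ABS and at 223, 219 and 216 CPM after sham surgery, and the groups overlapped. From lowest to highest, the group means were ABS-P3 (171 ± 19.3 CPM), Sham-P3 (184 ± 37.0), ABS-P7 (213 ± 23.2) and Sham-P7 (219 ± 3.35, SD, n = 3 each). Neighbours in that order differed by less than the larger SD of the pair, though not always by less than the smaller.

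Cat had the second narrowest range at P3, after Sod2. It was at 174, 142 and 156 CPM in ABS-P3 replicates 1 to 3, at 233, 159 and 169 CPM in Sham-P3 replicates 1 to 3, at 213, 182 and 201 CPM in ABS-P7 and at 212, 184 and 185 CPM in Sham-P7. The highest library of all was Sham-P3 replicate 1, the P3 library with the most genes detected, which was also the highest P3 library for Sod2. Means were 157 ± 15.7 CPM in ABS-P3, 187 ± 40.2 in Sham-P3, 194 ± 15.5 in Sham-P7 and 199 ± 16.1 in ABS-P7 (SD, n = 3 each). Sham-P3, Sham-P7 and ABS-P7 overlapped, and ABS-P3 overlapped Sham-P3 as well.

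Hmox1 was counted 191 to 459 times per library. Its levels were 30.1, 19.7 and 12.2 CPM in ABS-P3 replicates 1 to 3 and 26.1, 16.7 and 21.3 CPM in Sham-P3 replicates 1 to 3. Both the highest and the lowest library of the series were thus ABS-P3 libraries, 2.47 times apart, close to the median ratio of all genes at P3. At P7 it lay between 13.2 and 15.9 CPM in all 6 libraries, at 14.6 ± 1.35 CPM in the ABS group and 15.2 ± 0.395 CPM in the sham group (SD, n = 3). The P3 means were higher, at 20.7 ± 9.01 CPM in ABS-P3 and 21.4 ± 4.70 CPM in Sham-P3 (SD, n = 3), and did not differ from each other beyond their spread.

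Nqo1 was the least counted of the 5, with 28 to 118 counts per library. It was at 2.05, 7.25 and 4.60 CPM in ABS-P3 replicates 1 to 3 and at 5.68, 7.55 and 7.37 CPM in Sham-P3 replicates 1 to 3. ABS-P3 replicate 1 stood lowest, and its 95% exact Poisson interval of 1.36 to 2.97 CPM, which covers counting error only, did not reach any other library's value. At P7, the values were 4.60, 3.83 and 4.47 CPM after ABS and 4.41, 3.42 and 4.55 CPM after sham surgery. Their coefficient of variation over the 6 libraries was 11.4%, no larger than the 11.2% to 13.1% that counting alone gives at 58 to 80 counts. Means were 4.63 ± 2.60 CPM in ABS-P3, 6.87 ± 1.03 in Sham-P3, 4.30 ± 0.416 in ABS-P7 and 4.13 ± 0.617 in Sham-P7 (SD, n = 3 each).

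**Figure D1:**
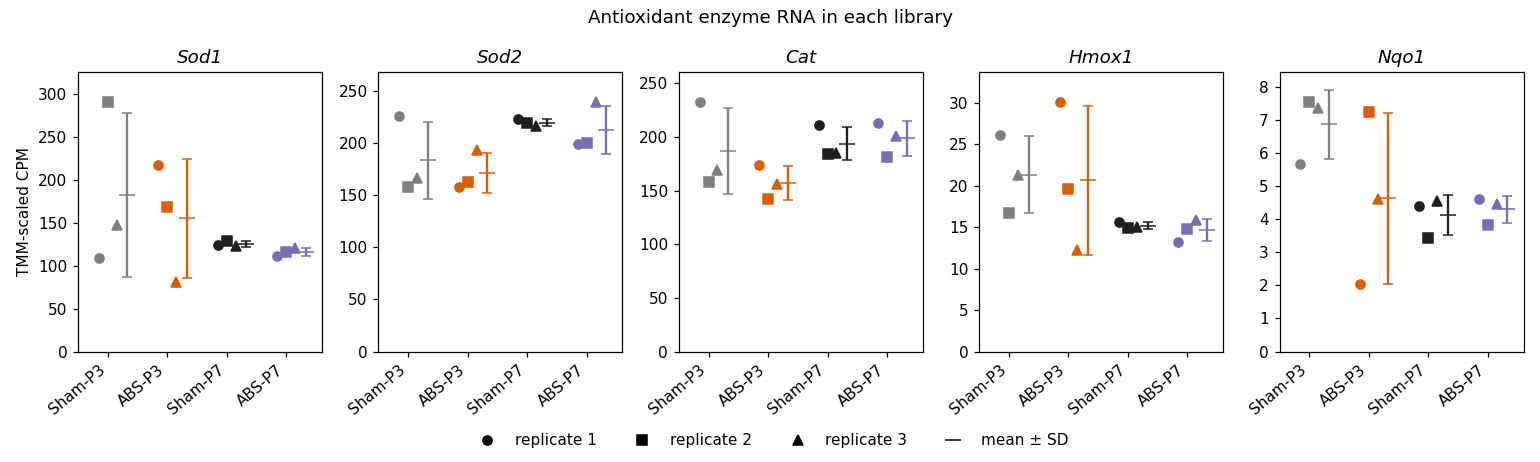
TMM-scaled CPM (linear axis from 0) of Sod1, Sod2, Cat, Hmox1 and Nqo1 in the 12 libraries, with 1 point per library, shaped by replicate, and the mean ± SD (n = 3) of each group beside them. P3 libraries spread widely for Sod1, from 80.5 to 291 CPM, and less for Sod2, from 158 to 226 CPM. P7 libraries lie closer together, for Sod1 from 111 to 129 CPM and for Sod2 from 199 to 240 CPM.

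With both surgeries pooled, all 5 genes spread less at P7 than at P3. Within single groups the size of the fall varied. The coefficient of variation was 11.3% at P3 and 10.9% at P7 for Sod2 after ABS. For Nqo1 after sham surgery it was 15.0% and 14.9%, and for Sod1 after sham surgery 52.6% and 2.65%. The coefficient of variation over the 6 libraries of a day was 45.2% at P3 and 5.10% at P7 for Sod1, 15.4% and 7.06% for Sod2, 18.4% and 7.34% for Cat, 30.6% and 6.30% for Hmox1, and 37.4% and 11.4% for Nqo1. The median over all 13010 genes was 33.1% at P3 and 10.5% at P7, so the wider spread at P3 was shared by genes at large. Relative to the mean of the P7 libraries, the Sod1 level on the log2 CPM scale was 0.48 to 1.27 higher in the 3 libraries with fewer than 16000 genes detected. In the same libraries the Sod2 level was below the P7 mean, by -0.45 to -0.41. In the 3 other P3 libraries, the differences from the P7 mean ran from -0.58 to 0.30 for Sod1 and from -0.37 to 0.068 for Sod2. Hmox1 and Nqo1 did not follow that order: ABS-P3 replicate 1 was highest for Hmox1 (1.01 above the P7 mean) and lowest for Nqo1 (-0.99). The part of the number of detected genes in these differences was not tested.

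**Figure D2:**
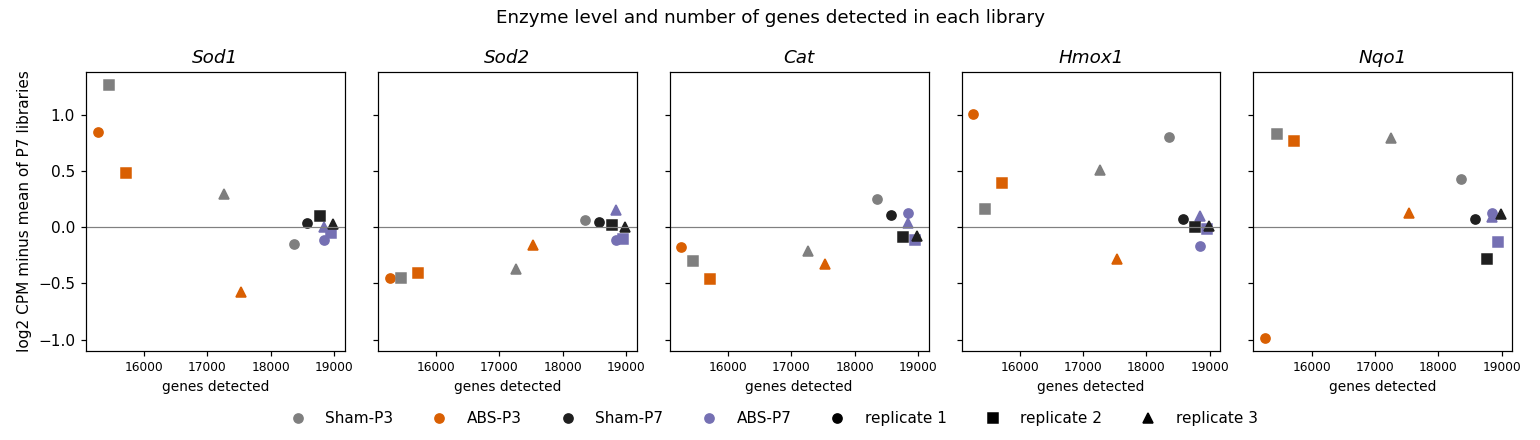
Log2 CPM of each enzyme minus the mean of the 6 P7 libraries (vertical axis) against the number of detected genes (horizontal axis), 1 point per library, coloured by group and shaped by replicate. The 3 P3 libraries under 16000 genes lie 0.48 to 1.27 above 0 for Sod1 and 0.41 to 0.45 below 0 for Sod2.

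A ratio of counts within 1 library does not depend on how libraries are scaled. The count ratio of Sod2 to Sod1, chosen for description after the values were seen, was 0.728, 0.968 and 2.40 in ABS-P3 replicates 1 to 3 and 2.09, 0.544 and 1.13 in Sham-P3 replicates 1 to 3. At P7 it was 1.79, 1.72 and 1.99 after ABS and 1.80, 1.70 and 1.76 after sham surgery. The P7 libraries thus held a narrow ratio of 1.70 to 1.99, and the P3 libraries lay on both sides of it, 4 below and 2 above. The mean log2 ratio was 0.66 higher at P7 (exact permutation test within surgery, two-sided, p = 0.105, with 400 arrangements and 0.005 as the smallest possible p). The count ratio of Cat to Sod2 had a narrower range, from 0.807 to 1.099 at P3 and from 0.841 to 1.07 at P7 (p = 0.36 for the days by the same exact permutation test). Neither ratio was a planned test, so these p-values are descriptive only.

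ABS was compared with sham surgery at each day to ask whether the surgery had changed these enzymes. The study's device could not read blood pressure in the first 2 weeks after surgery, so no pressure values exist for P3 or P7. At P3, 0 of the 5 genes were called, a call being an edgeR adjusted p under 0.05 (quasi-likelihood test), against 0% of the 14222 genes tested. At an unadjusted p under 0.05, 0 of the 5 genes and 0.330% of genes passed. DESeq2, run without the filter on low counts, called 0 of the 5 and 0.0199% of 20149 genes. All 5 log2 fold changes were below 0 with all 6 libraries, from -0.027 for Hmox1 to -0.55 for Nqo1, with a median of -0.21 beside -0.0051 over all genes tested, but standard errors were 0.24 to 0.53. For Sod1 the value was -0.21 with a standard error of 0.49 (edgeR, adjusted p = 1), and the 95% interval of the fold ran from 0.387 to 1.92. For Nqo1 the interval of the fold was 0.287 to 1.62, and for Sod2, the best determined, 0.635 to 1.41. At this spread, differences up to these bounds in either direction lay within the 95% intervals, whose bounds are not limits of detection. Without Sham-P3 replicate 2, the log2 fold change of Sod1 turned to 0.30, and without ABS-P3 replicate 3 to 0.098. Hmox1 turned to 0.24 without ABS-P3 replicate 3, to 0.15 without Sham-P3 replicate 1 and to 0.012 without ABS-P3 replicate 2, and Sod2 turned to 0.10 without Sham-P3 replicate 1. Nqo1 was at -1.02 without ABS-P3 replicate 2 and at -0.20 without ABS-P3 replicate 1. Without the 3 libraries of fewer than 16000 genes, chosen after seeing the data, the values were -0.67 for Sod1 and -0.96 for Hmox1, from 1 ABS-P3 and 2 Sham-P3 libraries, where 0.0525% of genes were called and the spread comes from the sham libraries alone.

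At P7, the same comparison was far more precise and again called 0 of the 5 genes, against 0% of 14635 genes. At an unadjusted p under 0.05, 0 of the 5 and 3.40% of genes passed, and DESeq2 called 0 of the 5 and 0.0679% of genes. Sod1 gave -0.11 on the log2 scale for ABS against sham, with a standard error of 0.070 (edgeR, adjusted p = 0.9995) and a 95% interval of the fold from 0.832 to 1.03. It was the only one of the 5 genes whose groups did not overlap, and all ABS libraries lay below all sham libraries for 4.44% of the genes tested. Its direction held without each library in turn, at -0.14 to -0.078, but its adjusted p was 0.825 to 1 over 16 alternatives. The log2 fold changes of the other genes were -0.044 for Sod2, 0.037 for Cat, -0.053 for Hmox1 and 0.0605 for Nqo1. Without ABS-P7 replicate 1, the signs turned for Sod2 (0.0053), Cat (-0.014) and Hmox1 (0.018), and without Sham-P7 replicate 2 for Nqo1 (-0.061). Their 95% intervals of the fold were 0.848 to 1.11 for Sod2, 0.897 to 1.17 for Cat, 0.803 to 1.16 for Hmox1 and 0.750 to 1.45 for Nqo1. A change of the RNA by more than these bounds was thus outside the 95% interval for each gene at P7. The intervals are not adjusted for the number of genes tested, and their bounds are not limits of detection.

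Over both days together, with the day as a covariate, 0 of the 5 genes were called by edgeR and 0 by DESeq2, against 0% of genes with either tool and 1.05% at an unadjusted p under 0.05, which none of the 5 reached. The log2 fold changes of ABS against sham were -0.26 to -0.051. Exact permutation of the surgery labels within each day gave two-sided p-values of 0.345 for Nqo1, 0.46 for Cat, 0.505 for Sod2, 0.565 for Sod1 and 0.705 for Hmox1. Whether the effect of ABS differed between the days was tested as an interaction over all 12 libraries. edgeR called 0 of the 5 genes and 0% of genes, DESeq2 called 0 of the 5 and 0.0221%, and at an unadjusted p under 0.05 edgeR passed 0 of the 5 and 1.16% of genes. The interaction terms on the log2 scale were 0.12 for Sod1, 0.055 for Sod2, 0.28 for Cat, -0.0043 for Hmox1 and 0.63 for Nqo1, with standard errors of 0.24 to 0.56. The Nqo1 term was 1.10 without ABS-P3 replicate 2 and 0.27 without ABS-P3 replicate 1, and was called in neither.

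The days were compared within each surgery group, which share no library. In the sham group, the log2 fold change of P7 against P3 was -0.55 for Sod1, 0.25 for Sod2 and 0.050 for Cat, the last turning below 0 without Sham-P3 replicate 2 (-0.053), Sham-P3 replicate 3 (-0.017) or Sham-P7 replicate 1 (-0.032). The Sod1 value was close to 0 without Sham-P3 replicate 2 (-0.036, standard error 0.17) and farther from it without Sham-P3 replicate 1 (-0.83, standard error 0.28). Of the 5 genes, 0 were called, against 0.00684% of 14619 genes. DESeq2 also called 0 of the 5, against 1.93% of genes. At an unadjusted p under 0.05, 1 of the 5 genes passed, which was Nqo1, against 16.1% of genes. It differed by -0.74 on the log2 scale with a standard error of 0.28 (edgeR, adjusted p = 0.299), a fold of 0.600 with a 95% interval of 0.375 to 0.958. All Sham-P7 libraries lay below all Sham-P3 libraries for Nqo1 and for Hmox1 (-0.50 ± 0.22 on the log2 scale, SE; edgeR adjusted p = 0.318), as they did for 14.5% of genes. They lay above them for neither Sod2 nor Cat, against 15.6% of genes. With library totals unscaled by TMM, the Hmox1 groups overlapped and the Sod2 groups did not, while Nqo1 kept its order.

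In the ABS group, 0 of the 5 genes were called against 0.0138% of 14504 genes. DESeq2 called 0 of the 5 against 2.48% of genes, and 0 of the 5 reached an unadjusted p under 0.05 with edgeR, against 17.7% of genes. All ABS-P7 libraries lay above all ABS-P3 libraries for Sod2 (0.29 ± 0.17 on the log2 scale, SE; edgeR adjusted p = 0.373) and for Cat (0.31 ± 0.17, adjusted p = 0.336), as they did for 15.0% of genes. None of the other 3 genes had all ABS-P7 libraries below all ABS-P3 libraries, which held for 13.0% of genes. Sod1 differed by -0.45 (standard error 0.35) and Hmox1 by -0.53 (standard error 0.35) on the log2 scale. Without ABS-P3 replicate 1, these values were -0.13 for Sod1 (standard error 0.34) and -0.15 for Hmox1 (standard error 0.29). Nqo1 differed by -0.13 (standard error 0.48), and its direction turned without ABS-P3 replicate 2 (0.35) and with totals unscaled by TMM (0.079).

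**Figure D3:**
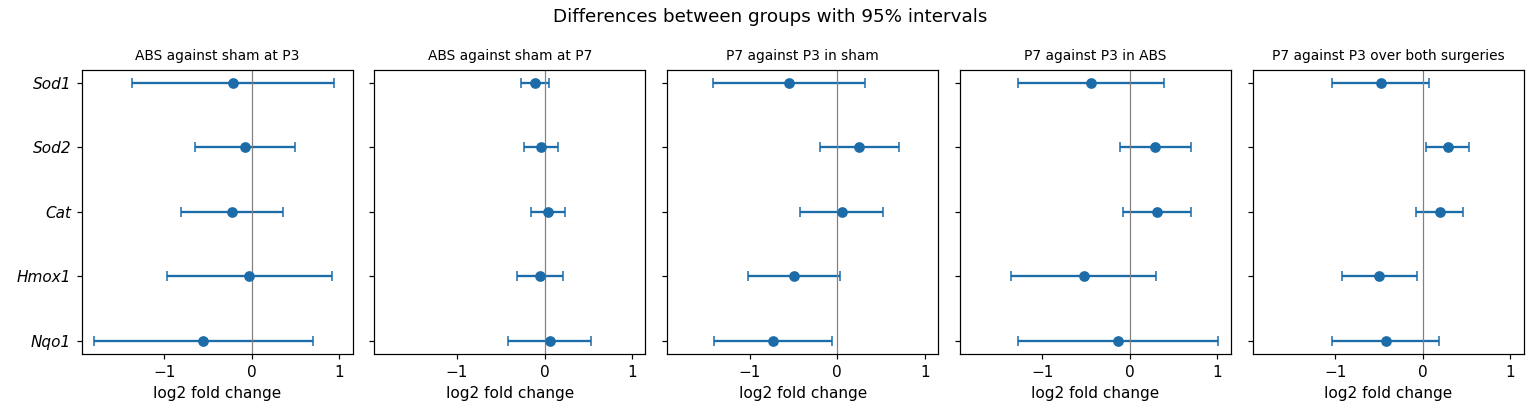
Log2 fold changes from edgeR (points) with 95% intervals (bars) for the 5 enzymes in 5 comparisons, on 1 shared axis, with 0 as the grey line. Intervals are narrow for ABS against sham at P7, for Sod1 from -0.27 to 0.047, and wide at P3, for Sod1 from -1.37 to 0.94.

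With both surgery groups in 1 fit and the surgery as a covariate, P7 was compared with P3 on all 12 libraries. Sod2 was at 158 to 226 CPM at P3 and at 199 to 240 CPM at P7, a difference of 0.29 ± 0.11 on the log2 scale (SE; edgeR adjusted p = 0.0929), or a fold of 1.22 with a 95% interval of 1.03 to 1.45. Hmox1 was at 12.2 to 30.1 CPM at P3 and at 13.2 to 15.9 CPM at P7, a difference of -0.49 ± 0.20 on the log2 scale (SE; edgeR adjusted p = 0.0929), or a fold of 0.710 with a 95% interval of 0.528 to 0.955. Neither was called, nor were Sod1 (-0.48, standard error 0.25), Cat (0.20, standard error 0.12) or Nqo1 (-0.42, standard error 0.28). The count of called genes was thus 0 of 5 with edgeR, where 17.1% of 15236 genes were called. It was 0 of 5 with DESeq2, where 18.3% of 22542 genes were, a wider set that includes genes with low counts. At an unadjusted p under 0.05, Sod2 and Hmox1 passed, 2 of the 5, against 37.6% of genes, which is close to the background for a list of this size. Exact permutation of the day labels within each surgery group gave two-sided p-values, not adjusted for the 5 genes, of 0.035 for Sod2, 0.055 for Hmox1, 0.095 for Cat, 0.23 for Sod1 and 0.32 for Nqo1.

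Some day differences were called when 1 P3 library was left out, and others with all libraries kept under limma voom with sample quality weights, which called 3 enzymes in the sham group, 2 in the ABS group and 3 over both surgeries where it called 46.0%, 46.4% and 48.0% of all genes. Without Sham-P3 replicate 1, edgeR called Sod2 (log2 fold change 0.42, adjusted p = 0.0396) and Nqo1 (-0.87, adjusted p = 0.0490) in the sham group, but the share of all genes called rose to 32.2% as well. Over all alternatives, the adjusted p in the sham group ranged from 0.0115 to 0.704 for Sod2 and from 0.0104 to 0.645 for Nqo1, the lowest of each being from limma voom. Without ABS-P3 replicate 3, edgeR called Sod1 (-0.76, adjusted p = 0.00218), Sod2 (0.38, adjusted p = 0.0265) and Hmox1 (-0.79, adjusted p = 0.0191) in the ABS group, where 50.1% of all genes were then called. The adjusted p in the ABS group ranged up to 0.860 for Sod1, 0.659 for Sod2 and 0.807 for Hmox1. The libraries left out here had the most genes detected of their groups, 18359 and 17530. Without ABS-P3 replicate 3, the ABS-P3 group held only libraries with fewer than 16000 genes detected (15266 and 15719). Without Sham-P3 replicate 1, the Sham-P3 group held libraries with 15451 and 17259. The part of the number of detected genes in these calls was not tested.

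In the fit of all 12 libraries, Sod1 (-0.65, adjusted p = 0.0304) and Hmox1 (-0.64, adjusted p = 0.0112) were called without ABS-P3 replicate 3, where 39.7% of all genes were. Sod2 (0.34, adjusted p = 0.0229) and Cat (0.27, adjusted p = 0.0499) were called without Sham-P3 replicate 1, where 35.2% were. In the opposite direction, Sod1 was at -0.25 without Sham-P3 replicate 2 and Hmox1 at -0.33 without ABS-P3 replicate 1, and neither was called. Leaving out the 3 P3 libraries with fewer than 16000 genes, which was decided after seeing the data, left 0 enzymes called, where 0% of all genes were called in the sham group, 3.15% in the ABS group and 3.15% over both surgeries. The Sod1 difference then turned to 0.16 (standard error 0.15) over both surgeries and to 0.51 in the ABS group. There 1 ABS-P3 library was left, which is assumed to vary like the ABS-P7 libraries, so the value carries no measure of the spread at P3. Hmox1 turned to 0.25 in the ABS group and remained lower over both surgeries, at -0.33 (standard error 0.19). Without those 3 libraries, the values over both surgeries were 0.14 for Sod2, 0.086 for Cat and -0.47 for Nqo1. With all 12 libraries they were 0.29, 0.20 and -0.42. The 22 alternatives of this comparison over both surgeries refit the same libraries. The value for P7 against P3 was above 0 in all 22 for Sod2 and Cat. It was below 0 in all 22 for Hmox1 and Nqo1, and turned in 1 for Sod1.

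**Figure D4:**
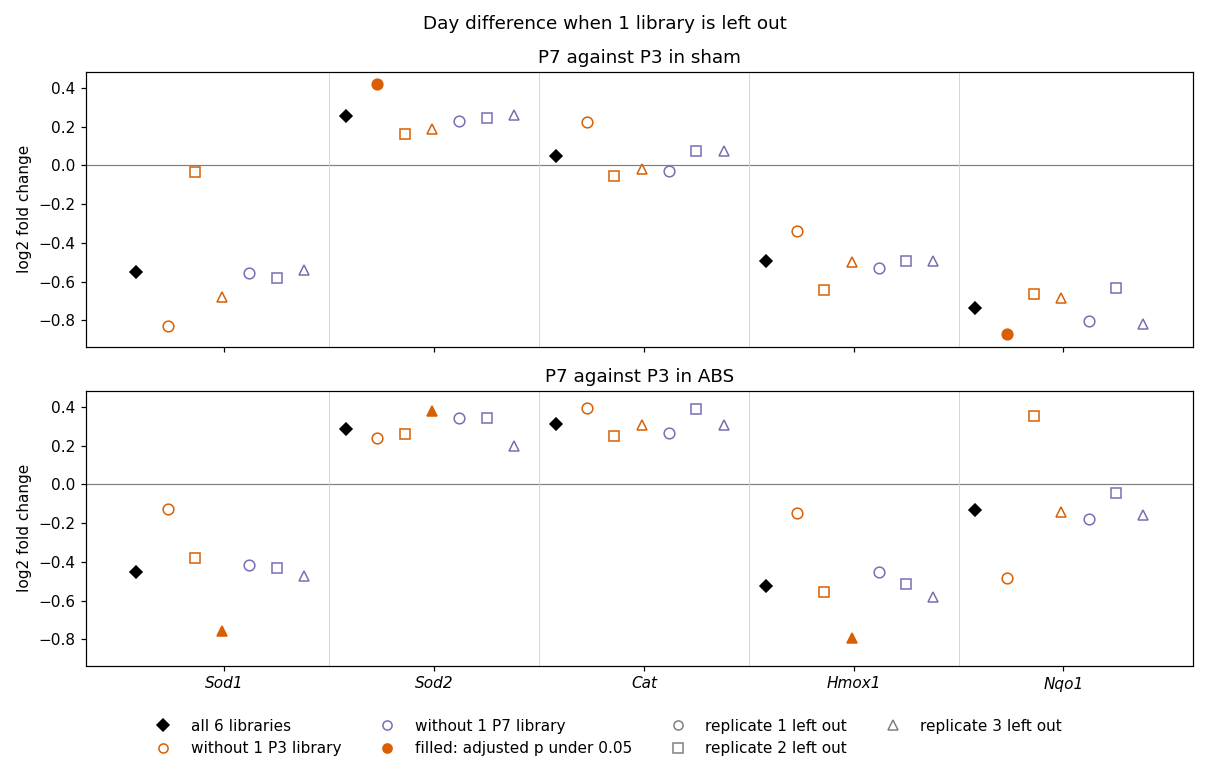
Log2 fold change of P7 against P3 in the sham group (upper panel) and in the ABS group (lower panel) for each enzyme, with all 6 libraries (black diamonds) and without each library in turn (orange without a P3 library, violet without a P7 library; the shape gives the replicate left out). Filled coloured points have an adjusted p under 0.05, and all 5 of them lack Sham-P3 replicate 1 or ABS-P3 replicate 3.

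For each enzyme, the gene most alike in pattern was sought among the 9129 or 9130 other genes whose mean reached 10 CPM, by the Pearson correlation of log2 CPM over the 12 libraries. It was ENSRNOG00000007784 for Sod1 (r = 0.983), at 30.7 to 155 CPM in the P3 libraries and 45.3 to 57.0 CPM at P7. For Sod2 it was ENSRNOG00000011659 (r = 0.970), at 128 to 300.0 CPM at P3 and 219 to 325 CPM at P7. For Hmox1 it was ENSRNOG00000050869 (r = 0.944), and for Cat ENSRNOG00000000565 (r = 0.905), while the highest r for Nqo1 was 0.916. These genes are given by identifier only, and the 12 points share depth, scaling and the wide P3 spread, so the values describe likeness and carry no test. No enzyme was the most alike gene of another.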

How the data were processed

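Poly(A) RNA of 12 libraries was sequenced as paired reads, which the authors cleaned, aligned and counted with featureCounts. The deposited values are raw counts of reads per gene, 1 file per library, with 1850 numbered rows outside the Ensembl genes. Per the labels, the processing notes list HISAT2 2.0.5 and the mouse builds GRCm38 and mm10, while the rows carry rat identifiers. Which genome the reads were aligned to is therefore not settled, nor are the annotation and the strand setting, and reads shared by overlapping or near-identical genes may be on either gene. No 2 files were identical.

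The 5 genes, lists and tests were chosen with earlier results of these data known. The symbols come from that choice, since 0 RefSeq rows held a rat Ensembl identifier. For the same reason, a wider list of antioxidant genes and the cell type markers were not analysed here. Counts were tested on the whole table with edgeR 4.0.16 (R 4.3.3), using TMM, filterByExpr, robust estimates and its two-sided quasi-likelihood F test. The Benjamini-Hochberg adjustment ran over every gene tested. Standard errors are the log2 fold change over the root of F. Single genes were also tested by exact permutation of log2 CPM (prior count 2), with labels exchanged within the other factor. The 5 genes were named in full, with the gene most alike to each, of which 4 identifiers are printed. Alternatives were DESeq2 1.42.0, RLE factors, no filter, at least 1 CPM in 3 libraries, no robust estimates, limma 3.58.1 (voom with sample quality weights), thinning to 14268210 counts, the replicate number as a block, 1 fit of all 12 libraries and each library left out. DESeq2 was run without filterByExpr, so its shares are over 20149 to 22591 genes. They are not like for like with the edgeR shares. Added after seeing the data were totals without TMM and leaving out the 3 P3 libraries with fewer than 16000 genes. The permutation tests of the count ratios were not planned. The tests were checked on simulated counts with changes in 200 genes, planted larger than the differences seen here. Recovery of most of them was required only at a spread below that of the comparisons with P3 libraries. At the spread of the data, only the direction had to be right. The check therefore does not show that differences of the size seen here could be found. The labels number replicates without naming animals, while the study's plan lists 3 rats per group.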

Additional observations from a re-analysis of the deposited data

How the results depend on the processing

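The enzymes called numbered 0 of 5 in all 7 comparisons. Of 133 counts under the alternatives, 126 did not move, and the 7 that did were all for P7 against P3. With voom and sample quality weights, 3 were called in the sham group (Sod2, Hmox1 and Nqo1), 2 in the ABS group (Sod1 and Hmox1) and 3 over both surgeries (Sod1, Sod2 and Hmox1), where 46.0%, 46.4% and 48.0% of all genes were. With 1 library left out, the number was 0 to 2 in the sham group, 0 to 3 in the ABS group and 0 to 2 over both surgeries. Sham-P3 replicate 1 and ABS-P3 replicate 3 were the only libraries whose absence gave a call. Totals without TMM moved the median log2 fold change of P7 against P3 over all genes from 0.0057 to 0.22 in the sham group, from 0.0080 to 0.23 in the ABS group and from 0.028 to 0.23 over both surgeries.

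Of the log2 fold changes under the alternatives, 606 kept direction and side of the threshold, 17 kept direction and came under it, and 42 changed direction, of which none was called. With voom, these were Sod1 (0.19) and Hmox1 (0.053) for ABS against sham at P3, Cat (0.0022) over both days, and Sod1 (-0.33) and Sod2 (-0.043) in the interaction. Without the 3 P3 libraries with fewer than 16000 genes, they were Cat in the sham group (-0.053), Sod1 (0.51) and Hmox1 (0.25) in the ABS group and Sod1 over both surgeries (0.16) for P7 against P3, and Sod2 (-0.019) and Hmox1 (0.91) in the interaction. Hmox1 in the interaction also turned without the filter (0.0070) and with totals without TMM (0.054), and Nqo1 for P7 against P3 in the ABS group with totals without TMM (0.079).

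With 1 library left out, ABS against sham at P3 ranged from -0.55 to 0.30 for Sod1, -0.18 to 0.10 for Sod2 and -0.41 to 0.24 for Hmox1. At P7 it ranged from -0.14 to 0.0053 for Sod2, -0.014 to 0.10 for Cat, -0.12 to 0.018 for Hmox1 and -0.061 to 0.14 for Nqo1. Over both days it ranged from -0.30 to 0.059 for Sod1, -0.11 to 0.013 for Sod2 and -0.22 to 0.075 for Hmox1, turning without Sham-P3 replicate 1 or 2 or ABS-P3 replicate 3. P7 against P3 ranged from -0.053 to 0.23 for Cat in the sham group and from -0.48 to 0.35 for Nqo1 in the ABS group. The interaction ranged from -0.38 to 0.44 for Sod1, -0.15 to 0.15 for Sod2 and -0.30 to 0.37 for Hmox1, turning without ABS-P3 replicate 1 or 3, Sham-P3 replicate 1 or 2, or ABS-P7 replicate 1 or 3. The causes of these changes were not tested.

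Same-numbered libraries of 2 groups correlated, in their deviations from the group means, at -0.45 to 0.36 at P3 and at 0.0045 to 0.054 at P7, and within a surgery group at -0.075 to 0.052 across days. Same-numbered libraries were therefore treated as unpaired. In fits with the replicate block, 0 of 5 enzymes were called in each comparison, where 14.5% of all genes were called for P7 against P3 over both surgeries and 0% in the other 6 comparisons. Nqo1 turned to 0.026 for P7 against P3 in the ABS group and Hmox1 to 0.036 in the interaction.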
